A study of Mus musculus with 10 samples.

Results

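The transcripts described here are *Nfe2l2*, which encodes NRF2, its inhibitor *Keap1* and 8 antioxidant or stress genes known as NRF2 targets. These 10 genes were chosen by name, with a rule that uses no measured level, out of 18292 gene symbols in the count tables of 10 single cell libraries. All 10 had enough counts to be tested, together with 12147 other genes. A gene that was missing from a library's table was taken as 0.

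NRF2 is a transcription factor that is made continuously and kept low by KEAP1, an adaptor that hands it to a CUL3 and RBX1 ubiquitin ligase. When electrophiles or oxidants modify cysteines of KEAP1, NRF2 escapes breakdown, pairs with small MAF proteins and binds antioxidant response elements (ARE) beside its target genes. The level of *Nfe2l2* RNA is therefore not a measure of NRF2 activity, whereas its targets serve as a common readout. In macrophages and microglia these targets support glutathione and thioredoxin recycling.

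Microglia of C57BL/6 mice were compared in 5 groups of 2 libraries, with no drug treatment and no genetic change named in the labels. Adult microglia came straight from adult brain tissue. *In vitro* microglia were collected from the medium of mixed glial cultures of neonatal cortex after 3 weeks, and slice microglia came from neonatal brain slices kept in culture for 1 day, 1 week or 3 weeks. All were sorted as live, CD11b high and CD45 intermediate cells and sequenced as 10x Genomics 3′ libraries. Age at isolation and culture therefore cannot be told apart: the adult cells matured in the animal, and the cultured cells came from pups. Slice medium held horse serum, N2 supplement and added PDGF, and mixed glial medium held horse and fetal bovine serum. Their culture temperatures differed too, so culture type and these conditions cannot be told apart either. Slices could be pooled for a sort. The study calls the samples of a group independent without saying whether they came from separate cultures or animals, so p-values measure only the spread between these libraries.

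Barcodes past the study's limits (mitochondrial UMIs above 5%, fewer than 400 genes, more than 30000 UMIs) were set aside, and 61 to 3799 cells per library remained, with 385373 to 39689540 UMIs. The slice 1 week libraries were the smallest, with 148 and 61 cells, and the shallowest cells, by median, were those of adult replicate 2 (1858 UMIs) and the deepest those of *in vitro* replicate 2 (13966 UMIs). All 9 microglia markers were detected in every library, at a summed 56400 and 56100 CPM (UMIs of a gene brought to the same fixed total in every library) in adult and 7330 to 29600 CPM in cultured libraries, a gap that runs beside every comparison with adult and whose part in the results was not tested. Neutrophil markers marked 71 and 117 cells at slice 1 day and 25 and 1 at slice 1 week, and no cell elsewhere. Markers of border macrophages summed to 2270 and 2130 CPM *in vitro* against 11.1 and 5.74 CPM in adult, and to 316 and 268 at slice 1 day, 217 and 200 at slice 1 week and 82.0 and 45.5 at slice 3 weeks. Monocyte markers summed to 157 and 190 CPM at slice 1 day and 165 and 0 at slice 1 week, against 7.18 and 5.0 in adult, and cycling markers to 180 to 492 CPM in the cultured libraries, against 40.0 and 37.4 in adult. Oligodendrocyte lineage markers reached 99.4 and 75.8 CPM at slice 3 weeks, against 8.64 and 10.9 in adult. Astrocyte markers had 153 and 148 CPM in adult and at most 33.8 in culture. Neuron markers had 52.7 and 25.9 CPM at slice 1 week, against 1.53 and 2.65 in adult. Red blood cell markers differed within groups, at 1850 and 0 CPM in adult and 3460 and 0.734 at slice 1 day. No 2 libraries shared more than 21 cell barcodes.

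The promoter sequences show which elements stand near the start sites of the genes that the results turn on. They are RefSeq sequences of GRCm38.p6, and 9 of the 10 genes had an entry in that set, with 11 windows of 250 bases before to 50 bases after a start site. Motifs were searched on both strands. The ARE core TGACNNNGC stood in windows of *Nfe2l2*, *Gclm*, *Txnrd1*, *Srxn1* and *Prdx1*, and in 12.4% of all 32851 promoters. In *Srxn1* it began at base 29 after the start site, outside the stretch printed below. In *Prdx1* it was the longer TGACTCAGC, found in 0.454% of promoters, which also holds an AP-1 motif. The AP-1 motif TGAGTCA, in 5.2% of promoters, occurred in *Srxn1* and *Prdx1* windows. The ATF4 element TGATGNAAN, in 3.95% of promoters, occurred in the *Slc7a11* window. None of these letters stood in the *Keap1*, *Nqo1* and *Sqstm1* windows.

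The stretches below run 5′ to 3′ on the strand of the gene, and the capitals mark the motif. *Gclm* (chr3:122245403-122245451, plus strand), *Txnrd1* (chr10:82859094-82859142, plus strand), *Prdx1* (chr4:116685446-116685494, plus strand) and *Nfe2l2* (chr2:75704875-75704913, minus strand) are shown with the ARE core, *Srxn1* (chr2:152105402-152105505, plus strand) with a pair of AP-1 motifs and *Slc7a11* (chr3:50443633-50443699, minus strand) with a pair of ATF4 elements that face each other.
Gclm: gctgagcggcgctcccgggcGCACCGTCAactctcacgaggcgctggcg
Txnrd1: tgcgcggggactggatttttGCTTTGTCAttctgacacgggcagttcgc
Prdx1: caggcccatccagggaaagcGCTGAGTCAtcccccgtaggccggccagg
Nfe2l2: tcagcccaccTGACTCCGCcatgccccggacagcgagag
Srxn1: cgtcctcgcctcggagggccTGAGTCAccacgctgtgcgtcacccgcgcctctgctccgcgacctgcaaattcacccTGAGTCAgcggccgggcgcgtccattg
Slc7a11: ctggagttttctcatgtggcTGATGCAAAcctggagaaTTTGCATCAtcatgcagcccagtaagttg

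All cells of a library were added up into 1 count per gene. Levels are CPM after TMM scaling, a correction for library composition, and a gene was called at an edgeR adjusted p (FDR) below 0.05 and a fold change above 1.5. In such sums fewer cells of a type and less RNA per cell cannot be told apart. The 3′ tag counts are not divided by gene length, since 1 tag stands for 1 transcript, and levels are compared between groups rather than between genes.

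Of the 10 genes 6 had their highest group mean at slice 1 day, 3 in adult and 1 *in vitro*. The same count over all tested genes was not made. At slice 1 day 7 of the 10 genes were up-regulated against adult, where 24.9% of all tested genes were, and 1 was down-regulated, against 25.3% of all tested genes. Their median log2 fold change was 2.09, and that of all tested genes was -0.06. *In vitro*, 5 genes were up-regulated (background 22.4%) and 1 was down-regulated (background 28.5%), with a median of 0.97. At slice 1 week 4 genes were up-regulated (background 15%) and 1 was down-regulated (background 13.6%), and at slice 3 weeks 5 were up-regulated (background 17.9%) and 0 were down-regulated (background 17.5%). Among the 10 genes at slice 3 weeks, 1 was lower at an unadjusted edgeR p below 0.05 and 0 were lower by DESeq2 (13.9% of all genes). At slice 1 week DESeq2 called 6 higher (16.1% of all genes). Without the cells that carry markers of other types the counts were the same, 7, 5, 4 and 5 higher at slice 1 day, *in vitro*, slice 1 week and slice 3 weeks. In that setting 26.3%, 25%, 14.4% and 20% of all genes were higher. Without cycling cells the counts were 7, 5, 5 and 5, where 24.3%, 22.1%, 14.7% and 17.5% of all genes were higher. These 4 comparisons share the adult libraries.

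**Figure D1:**
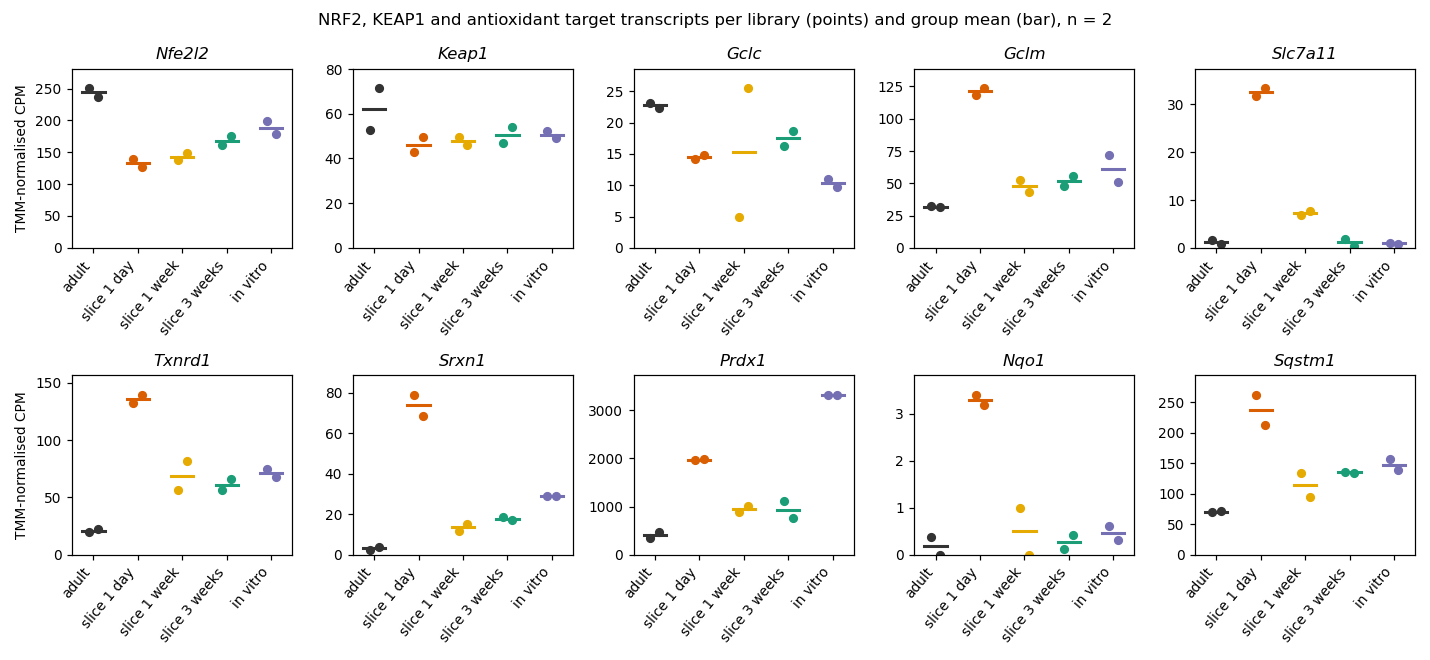
TMM-normalised CPM (vertical axes, from 0) of the 10 genes in each library (points) and the mean of each group (bar), with n = 2. *Slc7a11*, *Nqo1*, *Srxn1*, *Txnrd1*, *Gclm* and *Sqstm1* stand highest at slice 1 day, *Prdx1* stands highest *in vitro* at 3318 and 3326 CPM, and *Nfe2l2* stands highest in adult.

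**Figure D2:**
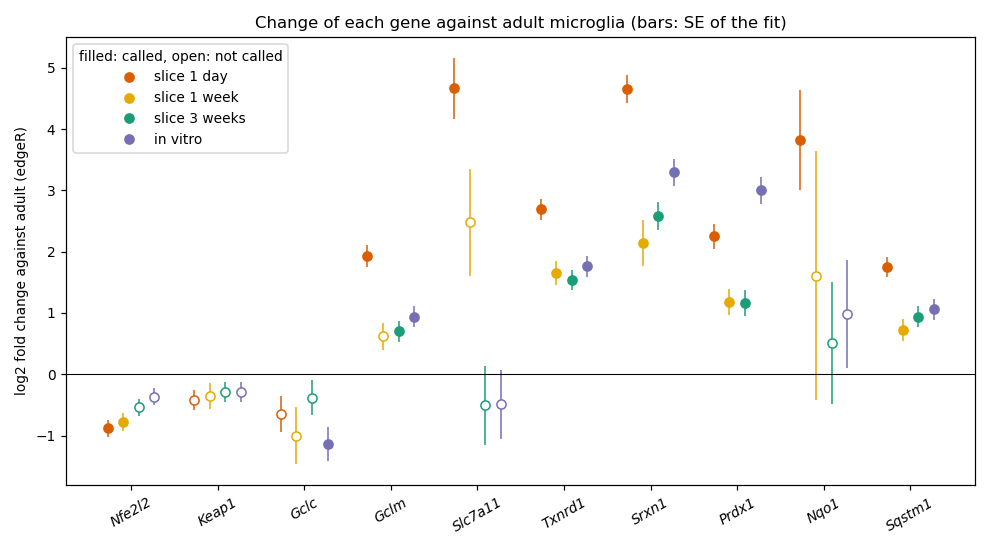
Fitted log2 fold change of each gene in each cultured group against adult, with an SE derived from the edgeR F statistic as bars. Filled points are called genes and open points are genes not called. *Slc7a11* and *Srxn1* reach 4.67 and 4.65 at slice 1 day, and *Nqo1* at slice 1 week has the widest SE, on 1 count in 2 libraries.

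On the TMM scale neither regulator was called higher than adult in any cultured group. *Nfe2l2* stood at 251.3 and 236.7 CPM in adult, 140.2 and 126.1 at slice 1 day, 137.4 and 148.4 at slice 1 week, 160.7 and 175.6 at slice 3 weeks and 198.8 and 178.1 *in vitro*. Both adult libraries lay above all 8 cultured libraries. It fell by 0.88 on the log2 scale at slice 1 day (SE 0.14, edgeR adjusted p = 0.0004) and by 0.78 at slice 1 week (SE 0.15, edgeR adjusted p = 0.003), the latter not called without slice 1 week replicate 1 (edgeR adjusted p = 0.051). The differences at slice 3 weeks (-0.54, edgeR adjusted p = 0.01) and *in vitro* (-0.37, edgeR adjusted p = 0.037) were under the fold limit. Counted as UMIs per cell with no scaling for depth, the direction turned in all 4 comparisons, to 0.65 at slice 1 day, 0.41 at slice 1 week, 0.55 at slice 3 weeks and 1.79 *in vitro*, where the median of all genes shifted to 1.49, 1.10, 1.05 and 2.04.

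*Keap1* lay between 42.72 and 71.61 CPM in all 10 libraries. The adult libraries had 52.52 and 71.61 CPM, and of the cultured libraries slice 3 weeks replicate 2, at 53.99 CPM, lay between them and the other 7 lay below both. No comparison of *Keap1* was called on the TMM scale over all libraries. The log2 differences from adult ran from -0.42 at slice 1 day (SE 0.17, edgeR adjusted p = 0.057) to -0.29. Within the study label TST11247, where adult replicate 2 is the only adult library, the slice 1 day value was -0.62. As UMIs per cell the differences turned, to 1.19 at slice 1 day, 0.88 at slice 1 week, 0.85 at slice 3 weeks and 1.94 *in vitro*.

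Glutamate-cysteine ligase is the enzyme of the first and rate-limiting step of glutathione synthesis. On the TMM scale the fitted differences of its subunits from adult had opposite signs, though *Gclc* passed only *in vitro*. As UMIs per cell both were positive. The catalytic subunit *Gclc* had 23.22 and 22.41 CPM in adult, 14.15 and 14.84 at slice 1 day, 4.941 and 25.59 at slice 1 week, 16.30 and 18.68 at slice 3 weeks and 10.95 and 9.738 *in vitro*. The slice 1 week libraries, with 5 and 10 counts, spanned the whole range. *Gclc* fell by 1.14 on the log2 scale *in vitro* (SE 0.28, edgeR adjusted p = 0.0054), a call lost without adult replicate 1 (-1.02, edgeR adjusted p = 0.052) or *in vitro* replicate 2 (-0.94, edgeR adjusted p = 0.087). As UMIs per cell the *in vitro* direction turned, to 1.02, below the median of all genes at 2.04. *Gclc* did not pass at slice 1 day (-0.65, edgeR adjusted p = 0.085; 0.90 as UMIs per cell), slice 1 week (-1.0, edgeR adjusted p = 0.13; 0.28 as UMIs per cell) or slice 3 weeks (-0.38, edgeR adjusted p = 0.32; 0.70 as UMIs per cell). Single slice 1 week libraries decided some of these: without replicate 1 or 2 of that group slice 1 day was called (-0.60, edgeR adjusted p = 0.012, and -0.61, edgeR adjusted p = 0.013), and without replicate 2 slice 1 week was called (-2.24, edgeR adjusted p = 0.0034).

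The modifier subunit *Gclm*, which lowers the substrate needs of the enzyme, had 32.30 and 31.55 CPM in adult, 118.7 and 124.0 at slice 1 day, 52.37 and 43.50 at slice 1 week, 47.99 and 55.57 at slice 3 weeks and 71.52 and 51.22 *in vitro*. Every cultured library lay above both adult libraries, and the slice 1 day libraries lay above all others. *Gclm* rose by 1.93 on the log2 scale at slice 1 day (SE 0.18, edgeR adjusted p = 1.4e-05), by 0.94 *in vitro* (SE 0.17, edgeR adjusted p = 0.00089) and by 0.70 at slice 3 weeks (SE 0.17, edgeR adjusted p = 0.0088). The 3 week call was lost without adult replicate 2 (0.68), which leaves 1 adult library, and by library size alone (0.50). Slice 1 week was not called (0.62, edgeR adjusted p = 0.053). It passed with RLE scaling, another normalization (0.68), by DESeq2 (0.68), over all barcodes (0.62) and as UMIs per cell (1.80).

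The count of *Gclm* per count of *Gclc* within a library needs no scaling between libraries. It was 1.39 (95% exact interval 1.20 to 1.61) and 1.41 (1.15 to 1.72) in adult, 8.39 (6.32 to 11.3) and 8.36 (7.03 to 10.0) at slice 1 day, 2.94 (2.40 to 3.63) and 2.98 (2.65 to 3.34) at slice 3 weeks, and 6.53 (5.82 to 7.34) and 5.26 (4.69 to 5.92) *in vitro*. Adult, slice 3 weeks and the other groups stood apart beyond these intervals, which cover counting error only, while both slice 1 day intervals overlapped that of *in vitro* replicate 1. Slice 1 week had too few counts to place, at 10.6 (4.27 to 34.0) and 1.70 (0.735 to 4.15). No test of this ratio was run, and the exact two-sided permutation test of 2 libraries against 2 cannot go below a p of 0.333.

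**Figure D3:**
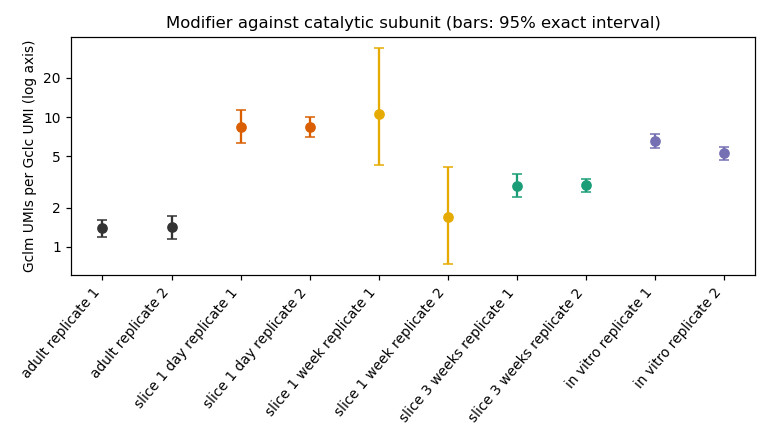
*Gclm* UMIs per *Gclc* UMI in each library on a log axis, with 95% exact intervals from the counts. Adult libraries lie at 1.39 and 1.41 and slice 1 day libraries at 8.39 and 8.36, and the slice 1 week intervals are wide because only 5 and 10 *Gclc* UMIs were counted.

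*Slc7a11*, the cystine importer that supplies glutathione synthesis with cysteine, stood out in the early slices. It had 1.611 and 0.7728 CPM in adult (22 and 6 counts), 31.71 and 33.49 at slice 1 day (121 and 325 counts), 6.917 and 7.676 at slice 1 week (7 and 3 counts), 1.940 and 0.3726 at slice 3 weeks (15 and 8 counts) and 1.060 and 0.7577 *in vitro* (33 and 27 counts). Slice 1 day stood above all other libraries, and adult, slice 3 weeks and *in vitro* libraries overlapped. It rose by 4.67 on the log2 scale at slice 1 day (SE 0.50, edgeR adjusted p = 3.7e-05). Slice 3 weeks differed from adult by -0.51 (edgeR adjusted p = 0.56; 0.65 as UMIs per cell), and without slice 3 weeks replicate 1 by -1.72 (edgeR adjusted p = 0.026). Between slice 1 day and slice 3 weeks it fell by 5.18 (SE 0.52, edgeR adjusted p = 0.00016). The slice 1 week difference from adult was 2.48 (SE 0.87, edgeR adjusted p = 0.054) and from slice 1 day -2.19 (SE 0.64, edgeR adjusted p = 0.055), and with a replicate block both passed, at 2.45 (edgeR adjusted p = 0.044) and -2.35 (edgeR adjusted p = 0.039). Both also passed by DESeq2, without the count filter, as UMIs per cell, without cycling cells and with the study label as covariate (3.73 and -2.19). Within the study label TST11247, where adult and slice 3 weeks have 1 library each, the values were 3.19 and -2.20. The difference from adult was not called with RLE scaling, by library size alone or over all barcodes. It was also not called in thinned cells or without cells with markers of other types.

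Neutrophil marked cells were present where *Slc7a11* was high. In the slice 1 day cells with neutrophil markers it had 107 and 73.7 CPM of the UMIs of that class, in cells without markers of another type or of cycling 37.2 and 38.2 CPM, and in cycling cells 1.67 and 13.8 CPM. At slice 1 week replicate 1 it had 33.5 CPM in the neutrophil class and 2.60 CPM in the cells without markers, on 5 and 2 counts. Without cells with markers of other types the log2 rise at slice 1 day was 4.72 (edgeR adjusted p = 3.5e-05), as large as with them.

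*Txnrd1*, the cytosolic thioredoxin reductase, had 20 and 22.15 CPM in adult, 132.4 and 139.7 at slice 1 day, 56.33 and 81.88 at slice 1 week, 56.40 and 66.00 at slice 3 weeks and 74.41 and 67.91 *in vitro*. Every cultured library was over the adult libraries and slice 1 day was over the rest. It rose by 2.69 at slice 1 day (SE 0.17, edgeR adjusted p = 1.9e-06), 1.65 at slice 1 week (SE 0.20, edgeR adjusted p = 0.00022), 1.54 at slice 3 weeks (SE 0.17, edgeR adjusted p = 7.8e-05) and 1.76 *in vitro* (SE 0.17, edgeR adjusted p = 1.1e-05), all on the log2 scale. Behind slice 1 day the order of the means was *in vitro*, slice 1 week and slice 3 weeks, and the neighbours did not differ beyond their error (*in vitro* against slice 1 week 0.10, SE 0.19, edgeR adjusted p = 0.77, and slice 3 weeks against slice 1 week -0.11, SE 0.19, edgeR adjusted p = 1).

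*Srxn1*, the sulfiredoxin that restores overoxidised peroxiredoxins, had 2.271 and 3.864 CPM in adult, 79.16 and 68.72 at slice 1 day, 11.86 and 15.35 at slice 1 week, 18.50 and 17.00 at slice 3 weeks and 28.94 and 29.13 *in vitro*. The order slice 1 day, *in vitro*, slice 3 weeks, slice 1 week and adult held without overlap of libraries, though slice 3 weeks and slice 1 week did not differ by the test (0.45, SE 0.32, edgeR adjusted p = 0.47). The rise over adult was 4.65 at slice 1 day (SE 0.23, edgeR adjusted p = 4.6e-07), 3.30 *in vitro* (SE 0.22, edgeR adjusted p = 1e-06), 2.59 at slice 3 weeks (SE 0.23, edgeR adjusted p = 2.2e-05) and 2.14 at slice 1 week (SE 0.38, edgeR adjusted p = 0.0021). In cells thinned to 1800 UMIs the slice 1 week value was 1.55 and not called (edgeR adjusted p = 0.41).

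*Prdx1*, an abundant peroxiredoxin that reduces hydrogen peroxide, was the gene with the other order. It had 354.8 and 478.1 CPM in adult, 1967 and 1981 at slice 1 day, 880.5 and 1008 at slice 1 week, 1111 and 753.7 at slice 3 weeks and 3318 and 3326 *in vitro*. Both *in vitro* libraries exceeded all slice libraries. It rose by 3.00 *in vitro* (SE 0.22, edgeR adjusted p = 1.9e-06), 2.25 at slice 1 day (SE 0.21, edgeR adjusted p = 1.7e-05), 1.18 at slice 1 week (SE 0.21, edgeR adjusted p = 0.002) and 1.16 at slice 3 weeks (SE 0.21, edgeR adjusted p = 0.0015) on the log2 scale. It made up 43.9% and 51.0% of the UMIs of the 10 genes in adult and 84.8% and 86.4% *in vitro*. Cells with border macrophage markers, 412 and 440 *in vitro*, had 3090 and 3080 CPM of their own UMIs and cells without such markers 3050 and 3070, and the *in vitro* rise was 3.09 (edgeR adjusted p = 7.5e-07) without the former.

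*Nqo1*, a quinone reductase often used as an NRF2 marker, was near the detection limit. It had 0.3662 and 0 CPM in adult (5 and 0 counts), 3.407 and 3.194 at slice 1 day (13 and 31 counts), 0.9882 and 0 at slice 1 week (1 and 0 counts), 0.1294 and 0.4192 at slice 3 weeks (1 and 9 counts) and 0.6102 and 0.3087 *in vitro* (19 and 11 counts). It rose by 3.82 at slice 1 day (SE 0.82, edgeR adjusted p = 0.0027) and was not called in the other groups, where few counts stood behind each value. In the slice 1 day libraries it had 11.3 and 11.4 CPM in neutrophil marked cells, on 2 and 9 counts, and 2.61 and 3.10 CPM in cells without markers. Without cells with markers of other types the log2 rise was 3.51 (edgeR adjusted p = 0.0075).

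*Sqstm1*, the autophagy receptor p62 that also binds KEAP1, had 70.24 and 70.97 CPM in adult, 262.4 and 213.2 at slice 1 day, 133.4 and 94.67 at slice 1 week, 135.7 and 134.7 at slice 3 weeks and 156.2 and 138.4 *in vitro*. All cultured libraries were above adult. It rose by 1.75 at slice 1 day (SE 0.17, edgeR adjusted p = 2.2e-05), 1.06 *in vitro* (SE 0.17, edgeR adjusted p = 0.00039), 0.94 at slice 3 weeks (SE 0.17, edgeR adjusted p = 0.0016) and 0.73 at slice 1 week (SE 0.18, edgeR adjusted p = 0.014) on the log2 scale. The slice 1 week call was lost without slice 1 week replicate 1 (0.45, edgeR adjusted p = 0.25) or adult replicate 2 (0.72, edgeR adjusted p = 0.057).

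Between slice 1 day and slice 3 weeks 7 genes were lower (background 12.8%) and by edgeR 0 were higher (background 13.9%; 1 at an unadjusted p below 0.05 and 0 by DESeq2), the 7 being *Slc7a11*, *Nqo1*, *Srxn1*, *Gclm*, *Txnrd1*, *Prdx1* and *Sqstm1*, with log2 changes from -5.18 to -0.81. The *Nqo1* call was lost without slice 1 day replicate 2 (-3.36, edgeR adjusted p = 0.061). Between slice 1 day and slice 1 week 5 genes were lower (background 5.25%) and by edgeR 0 were higher (background 4.91%; 0 at an unadjusted p below 0.05 and 0 by DESeq2). The count of lower genes moved with 1 library left out, which leaves a group of 1 sample. Without slice 1 week replicate 1 the calls of *Gclm* (-1.50, edgeR adjusted p = 0.057), *Prdx1* (-0.99, edgeR adjusted p = 0.12) and *Txnrd1* (-0.75, edgeR adjusted p = 0.11) were lost, and without slice 1 day replicate 2 those of *Prdx1* (-1.07, edgeR adjusted p = 0.073) and *Txnrd1* (-1.01, edgeR adjusted p = 0.064). In cells thinned to 1800 UMIs, where 0.998% of all tested genes were called lower, 1 of the 10, *Srxn1*, was, and *Gclm* (-1.04, edgeR adjusted p = 0.11), *Txnrd1* (-1.04, edgeR adjusted p = 0.091), *Prdx1* (-0.95, edgeR adjusted p = 0.068) and *Sqstm1* (-1.02, edgeR adjusted p = 0.058) were not. Between slice 1 week and slice 3 weeks 0 genes were higher (background 2.23%) and 0 were lower (background 3.49%) by edgeR, with 0 and 1 at an unadjusted p below 0.05. That 1 gene was *Slc7a11* (-2.99, SE 0.91, edgeR adjusted p = 0.086). It was called by DESeq2 (-2.82), without the count filter (-2.86), as UMIs per cell (-2.99) and with the study label as covariate (-3.88). Its value was -4.22 within TST11247 and -4.17 without slice 3 weeks replicate 1, both with 1 slice 3 weeks library. *Gclc* was called higher at slice 3 weeks without slice 1 week replicate 2 (1.91, edgeR adjusted p = 0.031).

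*In vitro* and slice 3 weeks microglia, both at 3 weeks of culture but in different media, differed in 2 of the 10 genes. Both were higher *in vitro* (background 13.3%), with 0 lower by edgeR (background 19.9%; 1 at an unadjusted p below 0.05 and 1 by DESeq2). *Prdx1* was higher by 1.83 on the log2 scale (SE 0.21, edgeR adjusted p = 0.00011) and *Srxn1* by 0.71 (SE 0.18, edgeR adjusted p = 0.011), the latter not called without *in vitro* replicate 2 (0.79, edgeR adjusted p = 0.05). *Gclc* was lower by a log2 difference of -0.76 (edgeR adjusted p = 0.052), and DESeq2 and several other settings called it. As UMIs per cell 7 of the 10 were higher *in vitro* than at slice 3 weeks, where 52.7% of all tested genes were. Against slice 1 day, *in vitro* microglia had 1 gene higher (background 13.3%), *Prdx1* at 0.75 (edgeR adjusted p = 0.016; 0.74 to 0.83 and not called when any of these 4 libraries was left out), and 6 lower (background 18.6%), from *Slc7a11* at -5.16 to *Sqstm1* at -0.69. Of those 6, the call of *Nqo1* was lost without slice 1 day replicate 2 or *in vitro* replicate 2, and that of *Sqstm1* without slice 1 day replicate 1 or either *in vitro* library. As UMIs per cell, where 26.1% of all tested genes were higher and 8.16% lower, 2 were higher, *Prdx1* (1.38) and *Nfe2l2* (1.14, edgeR adjusted p = 0.01), and 2 were lower, while *Gclm* (-0.37, edgeR adjusted p = 0.43), *Txnrd1* (-0.31, edgeR adjusted p = 0.5), *Srxn1* (-0.71, edgeR adjusted p = 0.1) and *Sqstm1* (-0.05, edgeR adjusted p = 0.93) were not called. Against slice 1 week, *in vitro* microglia had 2 genes higher (background 6.2%), *Prdx1* at 1.82 and *Srxn1* at 1.16, and 1 lower (background 10%), *Slc7a11* at -2.97. Without slice 1 week replicate 1 the *Srxn1* value was 1.01 (edgeR adjusted p = 0.29), and in thinned cells it was 2.25 (edgeR adjusted p = 0.074). The *Slc7a11* call was lost without any 1 library of slice 1 day, slice 1 week or *in vitro*, at -3.08 to -2.60 (edgeR adjusted p = 0.055 to 0.37), without cells with markers of other types (-2.02, edgeR adjusted p = 0.28) and in thinned cells (-1.07, edgeR adjusted p = 0.78). As UMIs per cell 7 genes were higher *in vitro* than at slice 1 week (38.7% of all tested genes in that setting), among them *Nfe2l2* (1.38), *Keap1* (1.05), *Gclm* (1.3), *Txnrd1* (1.06) and *Sqstm1* (1.32).

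Single cells were compared after thinning each to 1800 UMIs, which kept 16910 of 19059 cells. Of adult replicate 2 it kept 1909 of 3527 cells and of adult replicate 1 3386 of 3799, so adult shares rest on the deeper cells. A UMI of at least 4 of the 10 genes was found in 9.96% (95% exact interval 7.46 to 13) and 8.68% (7.02 to 10.6) of cells at slice 1 day, in 1.24% (0.895 to 1.67) and 1.36% (0.892 to 1.99) in adult, in 2.16% (0.447 to 6.18) and 1.92% (0.0487 to 10.3) at slice 1 week, in 2.92% and 2.90% at slice 3 weeks and in 3.60% and 2.42% *in vitro*. At slice 1 day *Srxn1* had a UMI in 8.94% and 9.17% of thinned cells (24.1% and 29.7% before thinning), against 0.325% and 0.419% in adult (0.763% and 0.794% before thinning). *Slc7a11* had one in 5.69% and 4.83% at slice 1 day (9.46% and 13.2% before thinning), and in at most 0.719% in every other library, where 0 of 52 cells of slice 1 week replicate 2 allow a share of up to 5.77%, taken as 3 cells of 52 (exact upper limit 6.85%; 2 of its 61 cells had one before thinning). No cell type in these libraries is known to lack these genes, so no background share could be set beside them.

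Genes differed in which slice 1 day cells held them. *Sqstm1* had 338 and 271 CPM in cells without markers, 61.8 and 123 in cycling cells and 147 and 102 in neutrophil marked cells. *Srxn1* had 99.0 and 88.0, 41.8 and 44.4, and 22.6 and 16.5 CPM in the same classes, and *Txnrd1* had 142 and 143, 159 and 174, and 95.9 and 66.1 CPM. Of these 3 genes *Txnrd1* was higher in cycling cells than in cells without markers, in both libraries. These class levels rest on 59 and 193 cycling cells and 71 and 117 neutrophil marked cells and carry no test.

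**Figure D4:**
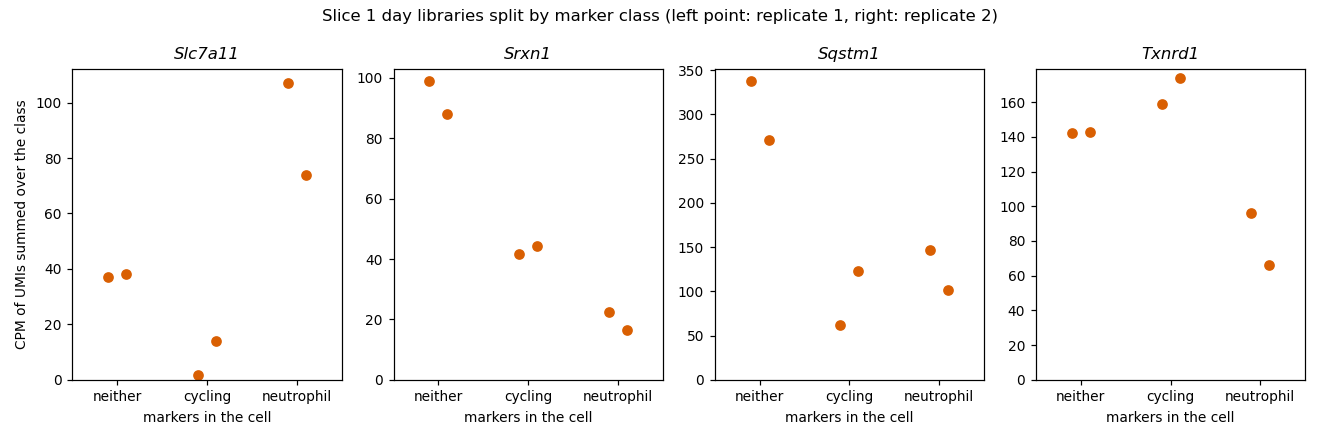
CPM of *Slc7a11*, *Srxn1*, *Sqstm1* and *Txnrd1* in slice 1 day cells without such markers, with cycling markers or with neutrophil markers, each axis from 0 and each point 1 library. *Slc7a11* is highest in neutrophil marked cells at 107 and 73.7 CPM, and *Srxn1* and *Sqstm1* are highest in cells without the markers.

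Other genes of the pathway were read from lists. Beside their counts stand the shares of all tested genes given above, 24.9% higher and 25.3% lower at slice 1 day, 22.4% and 28.5% *in vitro* and 17.9% and 17.5% at slice 3 weeks. Of 33 other NRF2 targets 28 were tested, and 18 rose and 2 fell at slice 1 day, 20 rose and 2 fell *in vitro*, and 15 rose and 0 fell at slice 3 weeks, with medians of 1.48, 1.38 and 1.07 on the log2 scale. *Hmox1*, the heme oxygenase, had 29.0 CPM (SD 3.85, n = 2) in adult, 1810 (SD 172) at slice 1 day, 347 (SD 0.99) at slice 3 weeks and 578 (SD 8.7) *in vitro*, rising by 5.96, 3.58 and 4.31 on the log2 scale (edgeR adjusted p = 1.7e-06, 3.3e-05 and 3.5e-06). *Mgst1*, a microsomal glutathione transferase, had 0.22 CPM in adult (6 and 0 counts), 51.3 at slice 1 day and 386 *in vitro*. Its log2 rise at slice 1 day was 7.52, and 6.49 (edgeR adjusted p = 2.2e-06) without cells with markers of other types. *Slc3a2*, the heavy chain partner of SLC7A11, fell by 0.84 *in vitro* (edgeR adjusted p = 0.00084), and *Cbr1*, a carbonyl reductase, fell by 1.37 at slice 1 day (edgeR adjusted p = 1.5e-05). As UMIs per cell these falls turned to 1.34 for *Slc3a2* and 0.17 for *Cbr1*, against medians of 2.04 and 1.49 over all genes.

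Of 12 partners and regulators of NRF2, 2 rose and 2 fell at slice 1 day and *in vitro* alike in number, and 2 rose and 1 fell at slice 3 weeks, where 24.9%, 22.4% and 17.9% of all tested genes rose. At slice 1 day 0 fell without adult replicate 1 or slice 1 day replicate 2, and at slice 3 weeks 0 fell without either adult library. *Rbx1*, a ligase subunit that pairs with KEAP1 and CUL3, rose by 0.72 both at slice 1 day and *in vitro* (edgeR adjusted p = 0.00096 and 0.00081). Among 22 other antioxidant enzymes, 17 rose and 1 fell at slice 1 day, 16 rose and 0 fell *in vitro*, and 14 rose and 0 fell at slice 3 weeks. By library size alone the 14 became 9 (14% of all genes). Fewer than 14 also rose within TST11247 and without adult replicate 2, which both leave adult with 1 library. *Gpx3*, an extracellular glutathione peroxidase, had 0.523 CPM in adult, 87.4 at slice 1 day, 582 at slice 1 week, 73.7 at slice 3 weeks and 174 *in vitro*. *Glrx*, a glutaredoxin, rose by 3.87 at slice 1 day, *Msrb1*, a methionine sulfoxide reductase, by 3.17 *in vitro*, and *Prdx4*, the peroxiredoxin of the endoplasmic reticulum, by 1.76 at slice 3 weeks (edgeR adjusted p = 5.6e-06, 1.3e-05 and 2.9e-05). *Txnrd2*, the mitochondrial counterpart of *Txnrd1*, fell by 1.10 at slice 1 day (edgeR adjusted p = 0.00016), and as UMIs per cell stood at 0.47 against a median of 1.49 over all genes.

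Autophagy genes beside *Sqstm1* did not rise as a list at slice 1 day, where 3 of 17 rose and 4 fell with a median of -0.01, against 24.9% and 25.3% of all tested genes. *In vitro* 7 rose and 1 fell, and at slice 3 weeks 5 rose and 1 fell. By library size alone 4 of the rises were left *in vitro* (16.6% of all genes rose) and 3 at slice 3 weeks (14%). Fewer were also left at slice 3 weeks within TST11247 and at slice 1 day without slice 1 day replicate 2. Those fits have groups of 1 library. *Gabarap*, an ATG8 protein, rose by 0.87 at slice 1 day and 1.57 *in vitro* (edgeR adjusted p = 0.0004 and 6.7e-06), and *Map1lc3a*, another ATG8 protein, fell by 1.56 and 1.05 there (edgeR adjusted p = 8.7e-05 and 0.00072). As UMIs per cell *Map1lc3a* stood at -0.02 at slice 1 day and 1.13 *in vitro*.

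*Slc7a11* is also a target of ATF4, a factor of the amino acid stress response, and a list of 8 genes held *Atf4* and 7 other genes of that response. All 8 rose at slice 3 weeks and 7 at slice 1 day, with medians of 2.55 and 2.25. The slice 3 weeks count was lower in some fits with 1 library left out. At slice 1 week 3 rose and 0 fell with a median of 0.79 (background 15% and 13.6%). *In vitro* 2 rose and 1 fell with a median of 0.06, and 4 rose there without cells with markers of other types (25% of all genes). All 8 were lower *in vitro* than at slice 3 weeks (background 19.9%), with a median of -2.44. *Psat1*, a serine synthesis enzyme, had 12 CPM in adult, 120 at slice 1 day, 201 at slice 3 weeks and 29.2 *in vitro*, and *Phgdh*, the first enzyme of that route, had 178, 143, 279 and 2.42 CPM. *Atf4* itself rose by 1.46 at slice 1 day (edgeR adjusted p = 0.0013) and by 1.00 at slice 3 weeks (edgeR adjusted p = 0.015), the latter not called without adult replicate 2 or slice 3 weeks replicate 2.

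**Figure D5:**
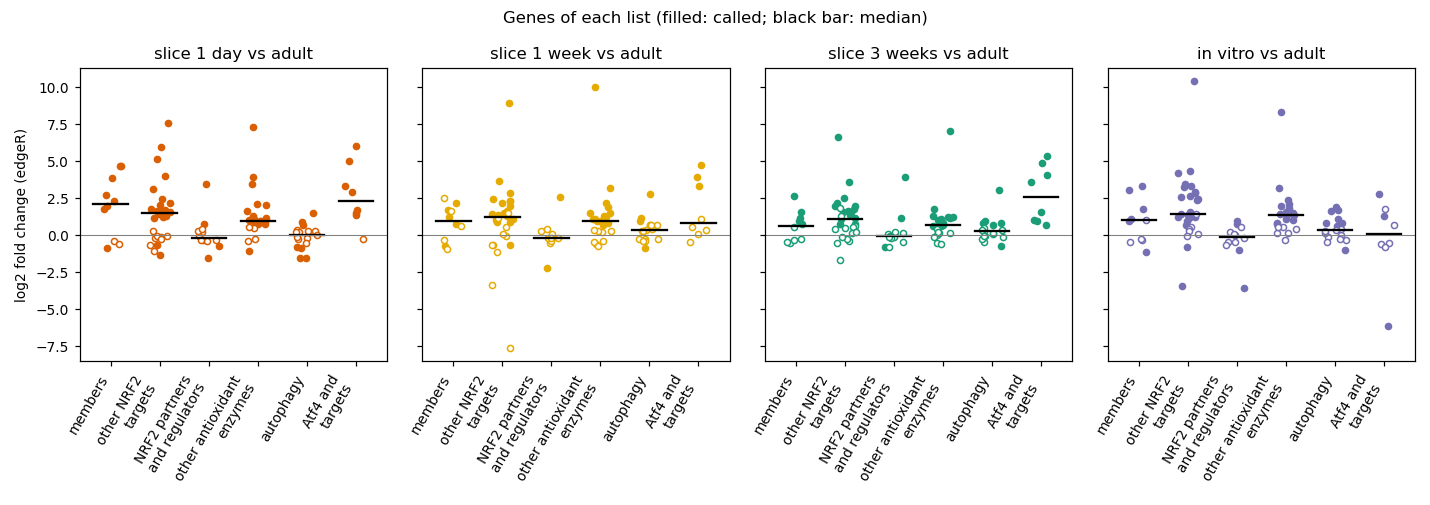
Fitted log2 fold change against adult of every tested gene of each list, in 4 panels for the cultured groups, with filled points for called genes and a black bar at the list's median. The median of the 10 genes is 2.09 at slice 1 day and 0.97 *in vitro*, and the ATF4 list stands at 2.55 at slice 3 weeks and 0.06 *in vitro*.

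The genes whose levels followed the members most closely over the 10 libraries are given as a description, from log2(CPM + 1) over 3911 genes. They were *Ptp4a1* for *Srxn1* (Pearson r 0.993), *Ola1* for *Txnrd1* (0.988), *Ndufb2* for *Prdx1* (0.99), *Npm3* for *Gclm* (0.969), *Polr2d* for *Slc7a11* (0.962), *Txnl1* for *Nqo1* (0.95), *1110065P20Rik* for *Sqstm1* (0.972), *Nav2* for *Nfe2l2* (0.969), *Topors* for *Keap1* (0.913) and *Faf2* for *Gclc* (0.947). The libraries share their group, so these values reflect the 5 group levels more than variation between libraries.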

How the data were processed

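The data were UMI counts per gene and cell barcode in 10 libraries, 2 for each of 5 groups. Per the labels and the submitters' processing notes, the authors made the deposited count tables with Cell Ranger 1.3.0 on mm10 from 10x Genomics 3′ kit v2 libraries, collapsing reads to UMIs. The 13 symbols listed more than once in a library were summed. Cells were filtered at the study's limits, which left 19059 of 19637 barcodes, and no doublet caller was run. The study also set outliers aside by t-SNE, with no rule stated in the sources used here, and worked with fewer slice 1 week cells than remain here; that step was not repeated. Library sums were tested by the quasi-likelihood method of edgeR 4.0.16 (TMM scaling, genes kept by filterByExpr at 10 counts), with the 5 groups in a single model. It covered 12157 genes, had a biological coefficient of variation of 18.3% and used Benjamini-Hochberg adjustment over all genes. The SE of a fold change is its absolute log2 value divided by the square root of the edgeR F statistic. Intervals for shares and ratios are exact binomial at 95%, and cover counting error only. Where both adult libraries have no count, the level could be as high as 0.14 CPM (3 counts). Neutrophil marked cells had at least 1% of UMIs in such markers, and other types at least 3 markers. Python 3.11.15, R 4.3.3, numpy 2.4.6, scipy 1.17.1 and pandas 2.3.3 were used, and DESeq2 1.42.0 as an alternative. The script was tested on simulated counts.

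The 10 genes, the lists and the rule for named genes (up to 2 called rises and 2 called falls a list, in 3 comparisons, at an average log2 CPM of at least 5) were chosen with earlier results of these data known. Alternatives changed the normalization, the filters on genes, cells and UMIs, the study label, the replicate block and the libraries.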

Additional observations from a re-analysis of the deposited data

Results flagged for a closer look

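Adult replicate 1 and slice 3 weeks replicate 1 carry the study label TST11200 and the other 8 libraries TST11247, and the labels do not say what it stands for. For *Slc7a11* slice 3 weeks minus adult was 0.329 CPM within TST11200 and -0.4 CPM within TST11247, and for *Nqo1* it was -0.237 and 0.419 CPM, so both differ in sign between the labels. The difference between the labels was not tested, and 1 to 22 counts or none stood behind each value.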

How the results depend on the processing

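Of 2290 fold changes of the 10 genes under the alternatives, 2156 kept their side of the threshold, 77 passed it newly, 48 lost it and 9 that were called before or after reversed. Of the 2156, 70 values called neither way changed sign, 16 of them as UMIs per cell. The 9 called reversals came from UMIs per cell without scaling for depth, where the medians of all genes shifted to 2.04 *in vitro*, 1.49 at slice 1 day, 1.10 at slice 1 week and 1.05 at slice 3 weeks. Against adult these were *in vitro* *Nfe2l2* 1.79, *Keap1* 1.94, *Gclc* 1.02 and *Slc7a11* 1.63, at slice 1 day *Nfe2l2* 0.65, *Keap1* 1.19 and *Gclc* 0.90, at slice 1 week *Nfe2l2* 0.41 and at slice 3 weeks *Keap1* 0.85. Not called and of turned sign against adult were *Keap1* 0.88 and *Gclc* 0.28 at slice 1 week and *Nfe2l2* 0.55, *Gclc* 0.70 and *Slc7a11* 0.65 at slice 3 weeks. In the lists *Slc3a2* (1.34) and *Map1lc3a* (1.13) *in vitro*, *Cbr1* (0.17), *Txnrd2* (0.47) and *Gabarapl2* (0.64) at slice 1 day and *Gabarapl2* (0.33) at slice 3 weeks reversed as well.

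In vitro against adult, 10 genes were higher as UMIs per cell (80.3% of all genes), and 3 were lower by library size alone (38.8% of all genes), 0 as UMIs per cell, 2 with no limit on fold (31.2%) and 0 to 1 with 1 library left out. At slice 1 day 2 were lower without the count filter or by library size alone (17.1% and 29.5% of all genes) and 0 as UMIs per cell. As UMIs per cell *Keap1* (1.19) and *Gclc* (0.90) joined the 7 higher genes (67.9% of all genes). The lower count also moved with 1 library left out. At slice 1 week 2 were higher in thinned cells (9.46% of all genes). Without the count filter 2 were lower (11.3% of all genes), and as UMIs per cell 0 were. As UMIs per cell *Gclm* (1.80) and *Slc7a11* (3.64) joined the 4 higher genes (44% of all genes). Both counts moved with 1 library left out. At slice 3 weeks 1 was lower by library size alone (25.2% of all genes) or with no limit on fold (20.2%). As UMIs per cell *Keap1* (0.85) joined the 5 higher genes (55.9% of all genes). The lower count also moved with 1 library left out. For *in vitro* against slice 3 weeks 7 were higher as UMIs per cell (52.7% of all genes) and 1 in thinned cells (13.1%). *Gclc* was called lower by DESeq2, without the count filter, by library size alone and in thinned cells. It was also called without marker or cycling cells and with the study label as covariate. Within TST11247, with 1 slice 3 weeks library, *Slc7a11* stood at 1.25 and *Gclc* at -0.85. Both counts moved with 1 library left out. Within TST11247 adult and slice 3 weeks have 1 library each, and a group of 1 sample is assumed to vary like the other groups. The causes were not tested.

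The labels do not say whether the replicate numbers pair the samples. Correlations of the deviations of same-numbered libraries ran from -0.276 to 0.305 over 3917 genes, which cannot exclude a shared preparation. With a replicate block the counts of higher genes were 7 at slice 1 day (24.6% of all genes) and 5 *in vitro* (22.1%). Only *Slc7a11* at slice 1 week changed its call, at 2.45 against adult and -2.35 against slice 1 day. Leaving out 1 library leaves a group with 1 sample, which is assumed to vary like the other groups. *Nqo1* could not be fitted in thinned cells. The slice 1 week libraries, with 148 and 61 cells, limit every statement on that time.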
